A study of Homo sapiens with 30 samples.

Results

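The genes described here are the feedback brakes on the extracellular signal-regulated kinase (ERK) and its sister kinases p38 and JNK: the dual-specificity phosphatases (DUSP), the Sprouty proteins (SPRY1 to SPRY4) and the SPRED proteins (SPRED1 to SPRED3). They were taken by symbol, as every row of the count table whose Ensembl identifier mapped to a protein-coding gene named DUSP followed by a number, SPRY or SPRED. The rule matched 29 of the 39359 genes in the table, and *DUSP21* and *DUSP26* were not analysed here. By role, they comprised 4 nuclear inducible phosphatases (*DUSP1*, *DUSP2*, *DUSP4* and *DUSP5*), 3 cytoplasmic ERK-selective phosphatases (*DUSP6*, *DUSP7* and *DUSP9*), 3 phosphatases directed at p38 and JNK (*DUSP8*, *DUSP10* and *DUSP16*), 12 atypical DUSPs, 4 Sprouty genes and 3 SPRED genes. 28 of the 29 passed the filter on low counts and were tested, and the remaining one, *DUSP29*, reached at most 0.0694 CPM, the read count scaled to library size.

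RNA was sequenced from H1299 cells, a human lung carcinoma line that lacks p53, after transient transfection with plasmids whose inserts were each under a TRE-tight promoter, among them GFP, and sorting of the GFP-positive cells at 6 h or 24 h post transfection. The vectors were pGFP, which carried no p53 and served as control, wild type p53, the RW mutant p53 with arginine replaced by tryptophan in the DNA-binding domain, and p53 O6-meG, with one O6-methylguanine on the template strand of the wild type coding sequence. In the p53 TM group (transcriptional mutagenesis) the p53 O6-meG vector was combined with 10 µM O6-benzylguanine (O6-bzG), added before transfection to inactivate the repair protein AGT. The other groups were given no O6-bzG, so that in comparisons of p53 TM with them the effect of O6-bzG and that of the unrepaired lesion cannot be told apart. Each of the 10 groups had 3 libraries, save that 2 of the 6 h libraries had titles in conflict with their genotype labels (one titled p53 O6-meG with genotype p53 TM, the other the reverse). These 2 were assigned to no group and their values are given separately, which left 2 libraries each for p53 O6-meG and p53 TM at 6 h. All groups share one cell line and p53 was supplied by plasmid in each, so levels are averages over sorted cells in which more responding cells and more RNA per cell cannot be told apart.

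As background, growth factor receptors activate RAS, which drives the kinases RAF, MEK and ERK. Active ERK induces genes that switch it off again. Sprouty proteins act between the receptor and RAS, SPRED proteins bring the RAS inactivator neurofibromin to the membrane, and the DUSPs known as MAP kinase phosphatases remove the activating phosphates from ERK, p38 or JNK themselves. The atypical DUSPs lack the kinase-binding domain of these phosphatases and have diverse substrates. p53 is a transcription factor that binds paired half-sites in DNA and activates genes such as *CDKN1A*, a cell cycle inhibitor, and *MDM2*, which degrades p53.

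The 30 libraries held between 32302699 and 71950532 counted reads (median 44424643). At 6 h *CDKN1A* was at 65.9 and 57.9 CPM in the p53 TM libraries and at 269 and 261 CPM in the p53 O6-meG libraries. Of the unassigned libraries, the one titled p53 O6-meG held 250 CPM and the one titled p53 TM held 50.2 CPM of *CDKN1A*. The keratins *KRT8* (111 to 181 CPM) and *KRT18* (272 to 720 CPM) and the mesenchymal-type markers *VIM* (1930 to 3580 CPM) and *CDH2* (43.6 to 64.8 CPM) were present, whereas the epithelial markers *EPCAM* and *CDH1* reached at most 0.381 and 0.176 CPM. No leukocyte, endothelial, alveolar or fibroblast marker exceeded 1.99 CPM.

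Levels of the members in control cells covered a wide range. Per kilobase of exon, the highest in pGFP at 24 h was *DUSP1* at 17.3 ± 4.3 CPM per kb (SD, n = 3), followed within 1 SD by *DUSP12* at 14.7 ± 1.3, *DUSP5* at 14.7 ± 3.9 and *DUSP14* at 13.2 ± 0.31 CPM per kb. *SPRED1* was sixth of the 29 at 9.11 ± 0.55 CPM per kb. *SPRY1* was at place 22 with 0.716 ± 0.11 CPM per kb, and *DUSP4* (0.0373 CPM per kb) and *DUSP13* (0.0368 CPM per kb) were the lowest of those tested. With wild type p53 at 24 h the order changed: *SPRY1* stood at place 7 with 9.01 ± 1.8 CPM per kb, and *SPRED1* at place 14 with 6.23 ± 0.64 CPM per kb. *DUSP1* kept the first place in both groups, at 29.6 ± 1.2 CPM per kb with wild type p53.

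The first comparison asked which of these genes responded to wild type p53. At 6 h, 5 of the 28 tested members rose against pGFP (*DUSP1*, *DUSP13*, *DUSP14*, *DUSP16* and *SPRY1*) and none fell, by edgeR's quasi-likelihood test at a Benjamini-Hochberg adjusted *P* under 0.05. Over all genes tested, 10.3% were called in this comparison, 8.68% higher and 1.59% lower, and 9 members had an unadjusted *P* under 0.05. Under some alternatives members were called lower at 6 h. These were *SPRED3* with the DESeq2 Wald test (-0.51, adjusted *P* = 0.0414), *DUSP10* with a replicate block shared by both times (-0.48, adjusted *P* = 0.0391), and both with a block within each time. With only the groups compared *SPRED3*, *DUSP10*, *DUSP6* and *SPRY2* were called lower (-0.28 to -0.50, adjusted *P* up to 0.0233). *DUSP5* was called higher with only the groups compared (0.28, adjusted *P* = 0.00141) and with a block within each time (0.31, adjusted *P* = 0.00194). The block within each time also called *DUSP22* higher (0.18, adjusted *P* = 0.0201). At 24 h, 13 members were called: *DUSP1*, *DUSP5*, *DUSP7*, *DUSP11*, *DUSP13*, *DUSP14*, *DUSP16*, *DUSP22*, *SPRY1* and *SPRY3* rose, and *DUSP15*, *SPRED1* and *SPRED3* fell. The background at 24 h was 35.0% called, 20.5% higher and 14.5% lower. Only *SPRY1* and *DUSP13* of the members rose by 2-fold or more, at both times, against 4.39% of all genes at 6 h and 9.22% at 24 h. Among the 28 members the median log2 fold change was 0.004 at 6 h and 0.215 at 24 h, against 0.021 and 0.008 for all genes. Of the cell type markers, *VIM* (0.33, adjusted *P* = 0.0344), *CDH2* (0.27, adjusted *P* = 0.00765) and 1 of 2 tested endothelial markers, *VWF* (1.69, adjusted *P* = 4.16e-04), rose in the 24 h comparison and 1 of 3 tested fibroblast markers, *COL1A1* (-1.53, adjusted *P* = 3.71e-04), fell. The summed endothelial level was 0.521 to 0.956 CPM with pGFP and 1.51 to 1.65 CPM with wild type p53, the summed fibroblast level 2.32 to 2.47 CPM and 1.04 to 1.17 CPM, and the part of these markers in the members' result was not tested. With the replicate number as a block, the 24 h comparison called 16 members, adding *DUSP2* (log2 fold change 0.43, adjusted *P* = 0.046), *DUSP12* (0.21, adjusted *P* = 0.0071) and *DUSP18* (0.22, adjusted *P* = 0.0164). Over all 21335 genes the same block raised the calls from 7467 to 10320.

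**Figure D1:**
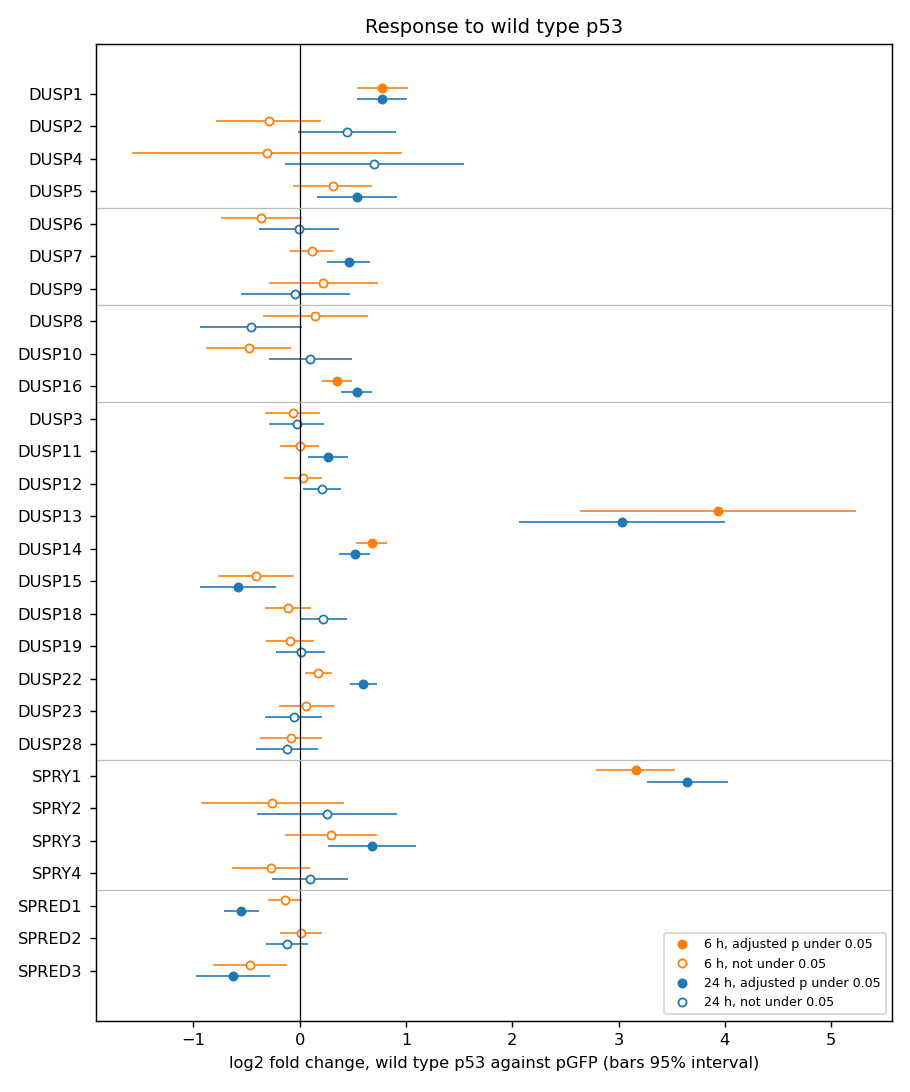
Log2 fold change of wild type p53 against pGFP (horizontal axis) for the 28 tested genes, grouped by role, at 6 h (orange) and 24 h (blue). Bars are 95% intervals and filled symbols mark an adjusted *P* under 0.05: SPRY1 and DUSP13 lie far to the right of the rest, and SPRED1, SPRED3 and DUSP15 lie to the left at 24 h.

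*SPRY1*, which blocks receptor signalling upstream of RAS, had the smallest adjusted *P* of the members at both times. The gene lies at chr4:123396795-123403760 on the plus strand (hg38). At 6 h *SPRY1* was at 2.47, 2.19 and 2.89 CPM with pGFP and at 21.8, 21.9 and 24.2 CPM with wild type p53. At 24 h it was at 2.34, 3.22 and 2.96 CPM with pGFP and at 43.6, 33.6 and 30.0 CPM with wild type p53. Every wild type p53 library thus lay several fold above every pGFP library at both times. The log2 fold change was 3.16 (SE 0.19, adjusted *P* = 8.64e-12) at 6 h and 3.65 (SE 0.19, adjusted *P* = 4.24e-13) at 24 h. RW mutant p53 left *SPRY1* within the pGFP range or close to it, at 2.58, 2.14 and 2.14 CPM at 6 h and 2.61, 3.30 and 2.68 CPM at 24 h.

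The sequence around the *SPRY1* start was searched because this gene had the largest fold change among members above 1 CPM. Of the motifs searched on both strands (the p53 half-site by its consensus, the CRE TGACGTCA, the AP-1 site TGANTCA and the TATA box TATAAA), none was found in the 250 bases before the RefSeq start (GRCh38.p14, chr4:123396545-123396794, plus strand), which are printed 5′ to 3′ in lower case throughout for that reason.
SPRY1: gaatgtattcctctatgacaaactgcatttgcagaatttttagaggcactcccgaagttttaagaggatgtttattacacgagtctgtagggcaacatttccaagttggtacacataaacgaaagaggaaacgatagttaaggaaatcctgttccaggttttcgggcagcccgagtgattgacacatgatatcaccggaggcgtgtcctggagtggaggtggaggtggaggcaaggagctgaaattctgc

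A wider search took pairs of adjoining p53 half-sites with a spacer of 0 or 1 base and at most 1 letter off the consensus within 10000 bases on each side of each gene start. Such a pair was present for 885 of 19970 protein-coding genes (4.43%) and for 1 of the 29 members, *SPRY1*. It lies at chr4:123399849-123399869 (hg38), 3054 bases after the gene start, in an intron, with the half-sites in capitals and the spacer base in lower case.
SPRY1 pair: GAGCGTGTTTgGGGCTTGTCC
Binding was not measured in these libraries, and the match is a description of the letters only. No pair of this kind lay in that window for *DUSP13*, *DUSP14* or the other called members.

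The remaining Sprouty genes behaved differently from *SPRY1*. *SPRY3*, on the X chromosome, was low in all libraries (1.49 to 4.997 CPM). At 24 h *SPRY3* was at 2.92, 1.95 and 2.48 CPM with pGFP and at 4.997, 3.46 and 3.30 CPM with wild type p53, so that the groups did not overlap but were close. Its log2 fold change was 0.68 (SE 0.21, adjusted *P* = 0.0139), and the call was lost without wild type p53 replicate 1 (adjusted *P* = 0.153) or without pGFP replicate 2 (adjusted *P* = 0.0873). *SPRY2* and *SPRY4*, which are classical ERK-induced feedback inhibitors, gave log2 fold changes of 0.26 (SE 0.34) and 0.10 (SE 0.18) at 24 h and did not pass the test at either time.

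Among the nuclear inducible phosphatases, *DUSP1*, which acts on p38 and JNK as well as ERK, rose at both times. *DUSP1* was at 21.1, 19.7 and 20.1 CPM with pGFP and at 35.5, 35.1 and 33.9 CPM with wild type p53 at 6 h. At 24 h it was at 25.5, 42.5 and 36.3 CPM with pGFP and at 57.3, 62.0 and 59.3 CPM with wild type p53. The pGFP libraries of 24 h were spread more widely than those of 6 h, yet all lay below the wild type p53 libraries. This gave a log2 fold change of 0.78 (SE 0.12, adjusted *P* = 5.39e-05) at 6 h and 0.77 (SE 0.12, adjusted *P* = 1.39e-05) at 24 h.

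The *DUSP1* promoter is shown because it held 2 of the motifs searched, a CRE that begins 125 bases before the start and a TATA box that begins 30 bases before it, both in capitals (GRCh38.p14, chr5:172771196-172771445, minus strand, read 5′ to 3′).
DUSP1: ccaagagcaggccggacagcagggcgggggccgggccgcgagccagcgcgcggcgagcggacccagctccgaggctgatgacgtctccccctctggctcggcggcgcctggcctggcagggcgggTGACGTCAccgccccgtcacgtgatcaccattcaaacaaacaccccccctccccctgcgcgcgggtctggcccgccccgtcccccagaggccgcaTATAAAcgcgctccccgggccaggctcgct
A CRE was present in 1.65% and a TATA box in 10.72% of the 35116 promoters of the RefSeq table, and no p53 half-site was found in this window of *DUSP1*. The CRE is the site bound by CREB, a factor activated by cyclic AMP and by kinases downstream of ERK and p38.

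*DUSP5*, the nuclear phosphatase selective for ERK, had a weaker call. At 24 h *DUSP5* was at 25.9, 43.9 and 41.8 CPM with pGFP and at 41.0, 61.2 and 59.7 CPM with wild type p53. The groups overlapped, since the wild type p53 library numbered 1 lay below 2 pGFP libraries. Within each replicate number, however, the wild type p53 library was the higher, and *DUSP5* was called with the replicate number as a block. Without a block the log2 fold change was 0.54 (SE 0.19, adjusted *P* = 0.0309). That call was lost without pGFP replicate 1 (adjusted *P* = 0.205) and without wild type p53 replicate 2 (0.128) or 3 (0.106). It was also lost, at adjusted *P* between 0.052 and 0.0536, without the 6 h libraries of wild type p53 replicate 1 or of RW mutant p53 replicate 1, 2 or 3, which enter only through the shared estimate of the spread. *DUSP2* and *DUSP4* stayed below 5 CPM in all libraries and did not pass the test, with log2 fold changes of 0.44 (SE 0.24) and 0.70 (SE 0.43) at 24 h.

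Of the cytoplasmic ERK-selective phosphatases, only *DUSP7* was called. *DUSP7* was at 10.2, 11.1 and 13.4 CPM with pGFP and at 14.0, 15.3 and 18.3 CPM with wild type p53 at 24 h, with no overlap but a narrow gap. Its log2 fold change was 0.46 (SE 0.10, adjusted *P* = 0.00106) at 24 h and 0.11 (SE 0.10) at 6 h. *DUSP6*, the main cytoplasmic brake on ERK, gave -0.01 (SE 0.19) at 24 h, and *DUSP9* gave -0.04 (SE 0.26).

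The *DUSP7* promoter is printed because it was, with that of *SPRY3*, one of 2 among 37 promoters of 25 members that held a p53 half-site, against 5.57% of all promoters in the table. The half-site, in capitals, begins 195 bases before the start (GRCh38.p14, chr3:52056572-52056821, minus strand, read 5′ to 3′).
DUSP7: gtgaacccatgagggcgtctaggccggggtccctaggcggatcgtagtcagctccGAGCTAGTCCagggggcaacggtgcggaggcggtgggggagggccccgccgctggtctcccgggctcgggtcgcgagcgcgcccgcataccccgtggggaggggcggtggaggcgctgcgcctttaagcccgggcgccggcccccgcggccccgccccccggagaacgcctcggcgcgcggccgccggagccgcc
A single half-site is a weaker match than the pair described for *SPRY1*. The AP-1 site was present in 1 member promoter, that of *SPRED3*, and in 6.57% of all promoters.

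*DUSP16*, a phosphatase of JNK and p38, rose at both times with little spread. It was at 48.4, 48.8 and 48.4 CPM with pGFP and at 62.5, 61.7 and 61.5 CPM with wild type p53 at 6 h. At 24 h it was at 45.8, 54.9 and 53.4 CPM with pGFP and at 76.4, 73.7 and 73.3 CPM with wild type p53. No wild type p53 library fell within the pGFP range at either time. This gave a log2 fold change of 0.35 (SE 0.074, adjusted *P* = 0.00166) at 6 h and 0.54 (SE 0.074, adjusted *P* = 2.35e-06) at 24 h. Its relatives *DUSP8* and *DUSP10* did not pass the test at either time, with values of -0.46 (SE 0.25) and 0.10 (SE 0.20) at 24 h.

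Among the atypical DUSPs, *DUSP14* and *DUSP22* had the smallest *P*. *DUSP14* was at 26.8, 24.8 and 24.4 CPM with pGFP and at 42.1, 39.3 and 40.3 CPM with wild type p53 at 6 h, and at 32.4, 32.8 and 31.4 CPM against 46.2, 49.1 and 43.0 CPM at 24 h. All wild type p53 libraries lay above all pGFP libraries of both times. This gave a log2 fold change of 0.68 (SE 0.075, adjusted *P* = 2.50e-07) at 6 h and 0.52 (SE 0.074, adjusted *P* = 4.00e-06) at 24 h. *DUSP22*, which acts in JNK signalling, was at 44, 43.2 and 45.7 CPM with pGFP and at 69.3, 71.6 and 60.2 CPM with wild type p53 at 24 h. The 24 h groups were well apart (log2 fold change 0.60, SE 0.066, adjusted *P* = 6.26e-08). At 6 h *DUSP22* was at 46.8, 46.5 and 45.8 CPM with pGFP and at 51.3, 52.8 and 53.04 CPM with wild type p53, which did not pass the test (0.18, adjusted *P* = 0.0972). With the replicate block within each time it was called (0.18, adjusted *P* = 0.0201).

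*DUSP13*, which encodes phosphatases best known from testis and skeletal muscle, was close to undetected without p53. It had 0, 0 and 3 counts in the pGFP libraries and 9, 14 and 31 counts in the wild type p53 libraries at 6 h. At 24 h it had 5, 3 and 3 counts with pGFP and 29, 45 and 22 counts with wild type p53. The counts were few but separated the groups at both times. The depth-adjusted ratio of summed counts was 17.8 at 6 h (95% counting interval 5.77 to 88.9) and 8.5 at 24 h (4.55 to 17.6), intervals that cover counting error only. The adjusted *P* was 1.40e-04 at 6 h and 2.71e-05 at 24 h.

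*DUSP11*, which removes phosphates from the 5′ ends of RNA, and *DUSP15* had weak calls. At 24 h *DUSP11* was at 23.5, 24.7 and 22.4 CPM with pGFP and at 28.8, 31.7 and 24.3 CPM with wild type p53, with overlapping groups (log2 fold change 0.26, SE 0.097, adjusted *P* = 0.0348). Within each number the wild type p53 library was the higher, and *DUSP11* was also called with the replicate block. Without a block the call was lost without pGFP replicate 1 (0.0748) or 3 (0.117) and without wild type p53 replicate 1 (0.151) or 2 (0.218). It was also lost, at adjusted *P* between 0.0709 and 0.0845, without the 6 h libraries of wild type p53 replicate 1 or of RW mutant p53 replicate 1, 2 or 3. *DUSP15* was at 1.62, 2.36 and 1.91 CPM with pGFP and at 1.25, 1.27 and 1.42 CPM with wild type p53 at 24 h, a small but complete separation (-0.58, SE 0.18, adjusted *P* = 0.0141). That call was lost without pGFP replicate 2 (adjusted *P* = 0.110). *DUSP12*, *DUSP15*, *DUSP18*, *DUSP19*, *DUSP22*, *DUSP28*, *DUSP6* and *SPRY3* share exon bases with a gene on the opposite strand (31 bases for *DUSP15*, 71 for *DUSP22* and up to 1527 for *DUSP18*), and whether the counting used strand is not given in the sources used here, so reads in those stretches are uncertain.

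Of the 3 SPRED genes, *SPRED1* and *SPRED3* fell at 24 h and none was called at 6 h. *SPRED1*, whose product recruits neurofibromin to RAS, was at 70.4, 75.0 and 66.5 CPM with pGFP and at 43.5, 47.9 and 53.4 CPM with wild type p53 at 24 h. The lowest pGFP library lay above the highest wild type p53 library. The log2 fold change was -0.55 (SE 0.083, adjusted *P* = 8.03e-06). At 6 h the values were 95.6, 93.9 and 98.4 CPM against 92.5, 90.5 and 78.7 CPM (-0.14, SE 0.082, adjusted *P* = 0.408). *SPRED3* was at 29.1, 21.0 and 24.1 CPM with pGFP and at 14.8, 15.0 and 18.2 CPM with wild type p53 at 24 h, again without overlap (-0.63, SE 0.18, adjusted *P* = 0.00684), and the call was lost without pGFP replicate 1 (adjusted *P* = 0.0530). *SPRED2* gave -0.12 (SE 0.10) at 24 h and did not pass the test.

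**Figure D2:**
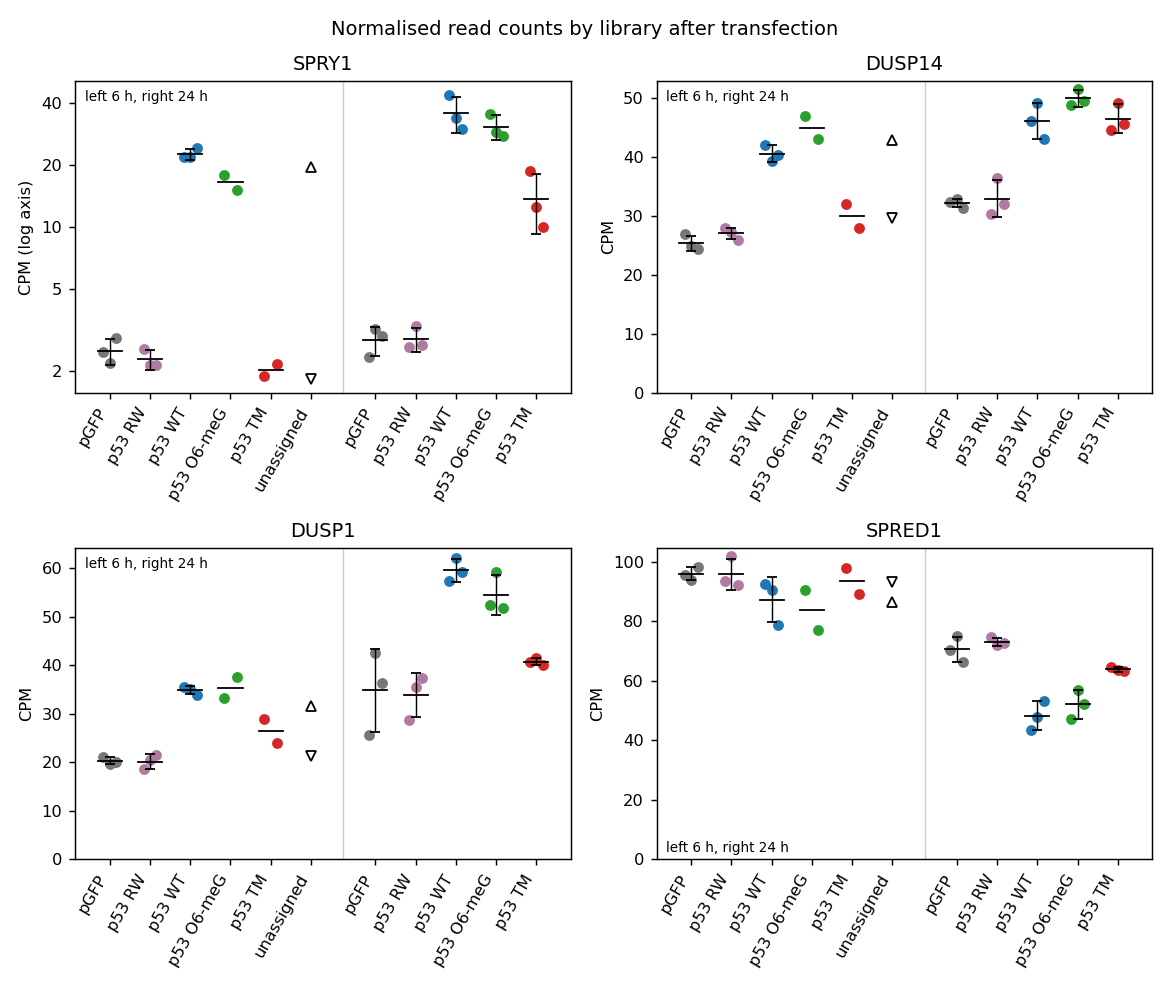
Normalised read counts (CPM) of SPRY1 (log axis), DUSP14, DUSP1 and SPRED1 in every library, with 6 h on the left and 24 h on the right of each panel. Points are libraries, horizontal lines group means and bars SD for groups of 3; of the open triangles, the upward one is the unassigned library titled p53 O6-meG and the downward one that titled p53 TM. SPRY1, DUSP14 and DUSP1 are high with wild type p53 at both times, and SPRED1 is low at 24 h.

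RW mutant p53 moved none of the 28 members against pGFP at 6 h or at 24 h, by edgeR's test or by DESeq2, and none had an unadjusted *P* under 0.05 by either tool. Over all genes, 0.00469% were called at each time. *DUSP14*, for example, was at 27.9, 27.2 and 26.0 CPM at 6 h and 30.4, 36.4 and 31.9 CPM at 24 h with RW mutant p53. *SPRED1* was at 74.7, 72.1 and 72.7 CPM with RW mutant p53 at 24 h, within the pGFP range.

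p53 O6-meG with active AGT called most of the members that wild type p53 called. The comparisons of wild type p53, RW mutant p53, p53 O6-meG and p53 TM with pGFP share the pGFP libraries, so their values are given side by side and their agreement is not a result. At 6 h, 4 members rose with p53 O6-meG (*DUSP1*, *DUSP13*, *DUSP14* and *SPRY1*; background 4.85% called in either direction). With the conflicting libraries placed by genotype only *DUSP14* was called there, and *SPRY1* (adjusted *P* = 0.103), *DUSP1* (0.0892) and *DUSP13* (0.311) were not. At 24 h, 12 were called, 9 higher and 3 lower, against 29.5% of all genes (18.1% higher and 11.3% lower). *SPRY1* was at 35.4, 29.0 and 27.6 CPM with p53 O6-meG at 24 h (log2 fold change 3.43 against pGFP, adjusted *P* = 1.13e-12), overlapping the wild type p53 range. *DUSP14* was at 48.8, 51.5 and 49.4 CPM (0.63, adjusted *P* = 2.45e-07), and *SPRED1* at 47.2, 56.8 and 52.2 CPM (-0.44, adjusted *P* = 1.77e-04). *DUSP28* fell (-0.43, adjusted *P* = 0.0343), a member that was not called with wild type p53. With the replicate number as a block 16 members were called, adding *DUSP12*, *DUSP15*, *DUSP18* and *SPRY3*. Over all 21335 genes the block raised the calls from 6292 to 9141. Set directly against wild type p53 at 24 h, p53 O6-meG called no member by edgeR (none with an unadjusted *P* under 0.05) and none by DESeq2 (1 with an unadjusted *P* under 0.05), with 0.00937% of all genes called.

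p53 TM differed from wild type p53 at both times. At 6 h p53 TM moved no member against pGFP by edgeR or DESeq2 (3 with an unadjusted *P* under 0.05 by each, background 0.202%), and against wild type p53 it was lower for *SPRY1*, *DUSP13*, *DUSP14* and *DUSP16* (4 of 28, background 10.9% called in either direction). *DUSP6* and *DUSP10* were called higher with p53 TM by the DESeq2 Wald test (0.63, adjusted *P* = 0.0383, and 0.65, adjusted *P* = 0.0437), with only the groups compared and with either replicate block. Both were also called without p53 O6-meG replicate 1 or 3 of 6 h (adjusted *P* from 0.0288 to 0.0493). *SPRY1* was at 1.90 and 2.16 CPM in the 2 p53 TM libraries, below all pGFP libraries of that time (log2 fold change against wild type p53 -3.47, SE 0.23, adjusted *P* = 2.67e-10). The p53 O6-meG libraries of 6 h held 17.8 and 15.2 CPM. The unassigned library titled p53 O6-meG held 19.6 CPM of *SPRY1* and that titled p53 TM held 1.85 CPM, so each was close to the group in the first part of its title. With both placed by their genotype labels instead, no member was called for p53 TM against wild type p53 at 6 h (*SPRY1* adjusted *P* = 0.166).

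*DUSP14* was at 31.95 and 27.9 CPM with p53 TM at 6 h, above the pGFP libraries and below those of wild type p53 (-0.44 against wild type p53, SE 0.084, adjusted *P* = 6.49e-04). *DUSP16* was at 48.4 and 40.2 CPM (-0.48, SE 0.084, adjusted *P* = 2.28e-04). *DUSP13* had 0 counts in both p53 TM libraries and was at least 11.7-fold higher in the wild type p53 libraries, taking a floor of 3 counts over the p53 TM group, while the 95% counting interval of the ratio begins at 9.18. *DUSP1* was at 28.9 and 23.9 CPM, between pGFP and wild type p53 (-0.40 against wild type p53, adjusted *P* = 0.0623).

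At 24 h the p53 TM cells no longer resembled pGFP for all members. 4 members rose against pGFP (*SPRY1*, *DUSP11*, *DUSP14* and *DUSP22*), against a background of 10.7% called in either direction. With the replicate block 7 were called, which added *DUSP16* (0.22, adjusted *P* = 0.0076) and *DUSP18* (0.24, adjusted *P* = 0.0189) as higher and *SPRED3* (-0.32, adjusted *P* = 0.0395) as lower. Over all genes that block raised the calls from 2280 to 4620. Without the filter on low counts *DUSP11* (adjusted *P* = 0.0942) and *DUSP22* (0.0780) were not called, nor were they with only the groups compared (0.0872 and 0.0714), which left *SPRY1* and *DUSP14*. *DUSP11* was also lost with DESeq2 size factors (0.0533) and without pGFP replicate 1 (0.0513) or 3 (0.0851) or p53 TM replicate 1 (0.0797) or 2 (0.0825), while leaving out pGFP replicate 2 gave 6 calls. Against wild type p53, 8 members were called (background 21.2%): *SPRY1*, *DUSP1*, *DUSP7*, *DUSP13*, *DUSP16* and *DUSP22* were lower with p53 TM (background 11.9%), and *SPRED1* and *DUSP15* were higher (background 9.29%). Those that were lower had risen with wild type p53 and those that were higher had fallen with it, in comparisons that share the wild type p53 libraries. The median over the members was -0.196, against -0.008 for all genes. The markers *VWF* (-2.20, adjusted *P* = 1.29e-04), *CDH2* (-0.35, adjusted *P* = 0.00183) and *KRT7* (-0.66, adjusted *P* = 0.0400) were also lower with p53 TM, with the summed endothelial level at 0.301 to 0.876 CPM, and their part in the members' result was not tested. With the replicate block 15 members were called, adding *SPRY2* (-0.39, adjusted *P* = 0.0347), *SPRY3* (-0.52, 0.00173), *DUSP5* (-0.37, 2.30e-04), *DUSP10* (-0.34, 0.0285) and *DUSP12* (-0.17, 0.0295) as lower and *DUSP3* (0.13, 0.0489) and *SPRED3* (0.29, 0.049) as higher. The calls over all genes rose with that block from 4520 to 7888.

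*SPRY1* was at 18.6, 12.5 and 9.99 CPM with p53 TM at 24 h. These libraries stood between the 2 outer groups, several fold above pGFP and below every wild type p53 and p53 O6-meG library. The log2 fold change was 2.26 (SE 0.19, adjusted *P* = 3.99e-09) against pGFP and -1.39 (SE 0.17, adjusted *P* = 4.01e-06) against wild type p53. With the conflicting 6 h libraries placed by genotype, the latter had an adjusted *P* of 0.0864. *DUSP1* was at 40.6, 41.5 and 39.96 CPM, within the pGFP range at its upper end (-0.55 against wild type p53, SE 0.12, adjusted *P* = 0.00188). *DUSP16* was at 58.7, 61.5 and 59.6 CPM (-0.31, SE 0.074, adjusted *P* = 0.00339).

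*DUSP22* was at 56.7, 55.5 and 51.9 CPM with p53 TM, above all pGFP and below all wild type p53 libraries (-0.29 against wild type p53, SE 0.065, adjusted *P* = 0.00201). *DUSP7* was at 12.5, 11.4 and 11.2 CPM, within the pGFP range (-0.44, SE 0.10, adjusted *P* = 0.00357). With only the groups compared in the fit, *DUSP22* (adjusted *P* = 0.0788) and *DUSP7* (0.0678) were not called. *DUSP13* had 11, 8 and 11 counts with p53 TM and was 3.44-fold higher with wild type p53 (95% counting interval 2.26 to 5.37). *SPRED1* was at 64.8, 63.8 and 63.1 CPM, just below the pGFP range and above that of wild type p53 (0.40, SE 0.083, adjusted *P* = 0.00101). *DUSP15* was at 2.13, 2.06 and 1.47 CPM (0.51, SE 0.18, adjusted *P* = 0.0447), a call lost in 15 of 36 alternatives (adjusted *P* up to 0.170), among them the removal of wild type p53 replicate 1 (0.105), 2 (0.115) or 3 (0.0536), of p53 TM replicate 1 (0.144) or 2 (0.160), or of replicate 3 of pGFP (0.0516) or RW mutant p53 (0.0510) at 24 h. At 6 h, removal of pGFP replicate 1 (0.0526), 2 (0.0527) or 3 (0.0520) or of wild type p53 replicate 2 (0.0522) also lost it.

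*DUSP14* and *DUSP11* were called against pGFP and were not called against wild type p53. *DUSP14* was at 44.6, 49.2 and 45.6 CPM with p53 TM at 24 h, overlapping wild type p53 and above every pGFP library (0.53 against pGFP, adjusted *P* = 1.36e-05). The log2 difference from wild type p53 was 0.01 (SE 0.074, adjusted *P* = 0.93), and its 95% interval ran from -8.75% to 11.5% of the wild type level. *DUSP11* was at 31.2, 31.8 and 27.1 CPM with p53 TM, with an interval of -6.86% to 20.9% against wild type p53.

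Expressed as the share of the wild type change, that is the distance of a library from the pGFP mean divided by the distance of the wild type p53 mean from it, p53 TM at 24 h reached 33.0 ± 13.5% for *SPRY1* (SD, n = 3), 23.8 ± 3.1% for *DUSP1*, 37.1 ± 6.2% for *DUSP16* and 45.8 ± 10.9% for *DUSP22*. The share was 30.1 ± 3.7% for *SPRED1* and 20.1 ± 7.5% for *DUSP13*. For *DUSP14* it was 102.9 ± 17.5%, against 127.8 ± 10% with p53 O6-meG and 5.2 ± 22.8% with RW mutant p53. The share of *DUSP11* was 137 ± 53.4% with p53 TM and 39.3 ± 46.9% with RW mutant p53, and that of *SPRED3* was 57.4 ± 28.4% and 33.6 ± 56.6%. These SDs include differences between replicate numbers, since each library was set against the pGFP mean. In order of number, *DUSP11* was at 31.2, 31.8 and 27.1 CPM with p53 TM and at 24.7, 27.9 and 23.6 CPM with RW mutant p53. *SPRED3* was at 22.5, 19.0 and 17.7 CPM and at 27.5, 19.3 and 18.6 CPM. A comparison of p53 TM with RW mutant p53 was not tested. With p53 O6-meG the shares of *SPRY1*, *DUSP1*, *DUSP16*, *DUSP22* and *SPRED1* were between 79.5 ± 16.6% and 89.9 ± 15.3%. For *DUSP5*, *DUSP7*, *DUSP15* and *SPRY3* the SD of the p53 TM share (16.5 to 68.1%) exceeded its mean (4.3 to 26.8%). Without pairing by replicate number the shares of those members were not resolved. The members were taken for this summary because wild type p53 changed them, and no test was made of the shares.

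**Figure D3:**
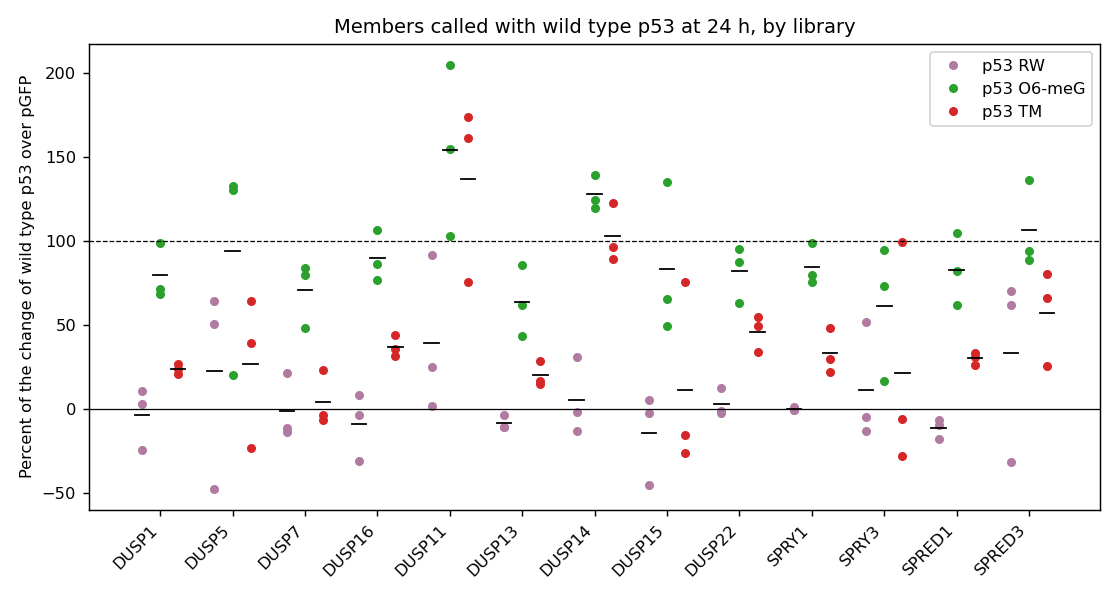
Share of the wild type p53 change at 24 h (percent, 0 at the pGFP mean and 100 at the wild type p53 mean) for the 13 members called at 24 h, with each point a library of RW mutant p53, p53 O6-meG or p53 TM. For SPRY1, DUSP1, DUSP16, DUSP22 and SPRED1 the means of RW mutant p53 lie between -11.3 and 2.8, those of p53 TM between 23.8 and 45.8 and those of p53 O6-meG between 79.5 and 89.9, while for SPRED3, DUSP5, DUSP11 and SPRY3 the points are widely scattered, those of RW mutant p53 included (-47.4 to 91.8 over these genes).

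Against p53 O6-meG at 24 h, which carried the same plasmid without O6-bzG, p53 TM was lower for *SPRY1* (-1.17, adjusted *P* = 1.51e-04), *DUSP1* (-0.42, adjusted *P* = 0.0262), *DUSP16* (-0.27, adjusted *P* = 0.0214) and *DUSP22* (-0.20, adjusted *P* = 0.0486) and higher for *SPRED1* (0.29, adjusted *P* = 0.0233). These 5 of 28 stood against 10.0% of all genes called. With the replicate block 9 were called, adding *DUSP5*, *DUSP7*, *DUSP13* and *SPRED3*, while the calls over all genes rose from 2144 to 5391. With only the groups compared no member was called, and without p53 TM replicate 3 only 1 was. The *DUSP22* call was lost in 25 of 36 alternatives.

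The wild type response itself changed between 6 h and 24 h for 2 members (6.51% of all genes). For *DUSP22* it was larger at 24 h by 0.42 on the log2 scale (SE 0.092, adjusted *P* = 0.0064), and for *SPRED1* it was lower by 0.41 (difference -0.41, SE 0.12, adjusted *P* = 0.033). For *SPRY1*, *DUSP1*, *DUSP14* and *DUSP16* the difference between the times did not pass the test.

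The same genes were followed over time in cells given no wild type p53. In pGFP cells, 16 of 28 members differed between 24 h and 6 h, 11 higher and 5 lower, against a background of 41.2% (19.0% higher and 22.3% lower). The nuclear phosphatases *DUSP1*, *DUSP2* and *DUSP4* rose, as did *DUSP6*, *DUSP8*, *DUSP14*, *DUSP15*, *SPRY3*, *SPRY4*, *SPRED2* and *SPRED3*, and *DUSP3*, *DUSP7*, *DUSP11*, *DUSP12* and *SPRED1* fell. RW mutant p53 cells, which share no library with pGFP, called 14 members against 40.1% of all genes (10 higher against 18.8%, 4 lower against 21.2%). All 14, which is 100% of the RW calls and 87.5% of the pGFP calls, were called in pGFP in the same direction. The share of all genes called in both was not counted. Same-number libraries of different vectors also deviated together at 24 h, so this agreement is not a result about the members. The median log2 fold change of the members was 0.322 with pGFP and 0.277 with RW mutant p53, against 0.003 and 0.012 for all genes. With the replicate block within each time 21 members were called in pGFP, adding *SPRY2*, *DUSP10* and *DUSP13* as higher and *DUSP5* and *DUSP19* as lower. With RW mutant p53 it called 19, adding *SPRY2*, *SPRY3*, *DUSP9* and *DUSP10* as higher and *DUSP11* as lower. Over all genes this block raised the calls from 8796 to 11555 in pGFP and from 8552 to 11279 in RW mutant p53.

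The 3 members with the smallest adjusted *P* for time in pGFP cells were *DUSP1* (0.78, SE 0.12, adjusted *P* = 2.04e-05), *SPRED1* (-0.44, SE 0.082, adjusted *P* = 1.30e-04) and *DUSP7* (-0.52, SE 0.10, adjusted *P* = 3.24e-04). *DUSP7* was at 15.2, 17.7 and 16.6 CPM at 6 h and, as given above, at 10.2 to 13.4 CPM at 24 h, without overlap. For *SPRED1* the changes with time and with wild type p53 at 24 h had the same sign, and for *DUSP7* they were opposed. Both comparisons use the pGFP libraries of 24 h, on opposite sides, so the relation of the signs is not a result. Among the called members the largest fold change was that of *DUSP4* (1.63, SE 0.53, adjusted *P* = 0.0166), a gene of at most 0.475 CPM in any library. The count fell to 9 without pGFP replicate 1 of 6 h and, for RW mutant p53, to 10 without its replicate 2 of 6 h. Between 6 h and 24 h of pGFP, 2 of 2 tested endothelial and 2 of 3 tested fibroblast markers rose as well. Their summed level went from 0.162 to 0.244 CPM at 6 h to 0.521 to 0.956 CPM at 24 h for endothelial markers. For fibroblast markers it went from 0.743 to 0.836 CPM to 2.32 to 2.47 CPM. Of 4 tested epithelial markers 1 rose and 1 fell, and 1 of 2 mesenchymal-type markers fell. The summed epithelial level went from 712 to 798 CPM at 6 h to 423 to 522 CPM at 24 h. For the mesenchymal-type markers the sum went from 3000 to 3090 CPM to 1980 to 2760 CPM. The part of these markers in the result was not tested. *CDH5* (endothelial) and *COL3A1* (fibroblast) were at or near 0 throughout.

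**Figure D4:**
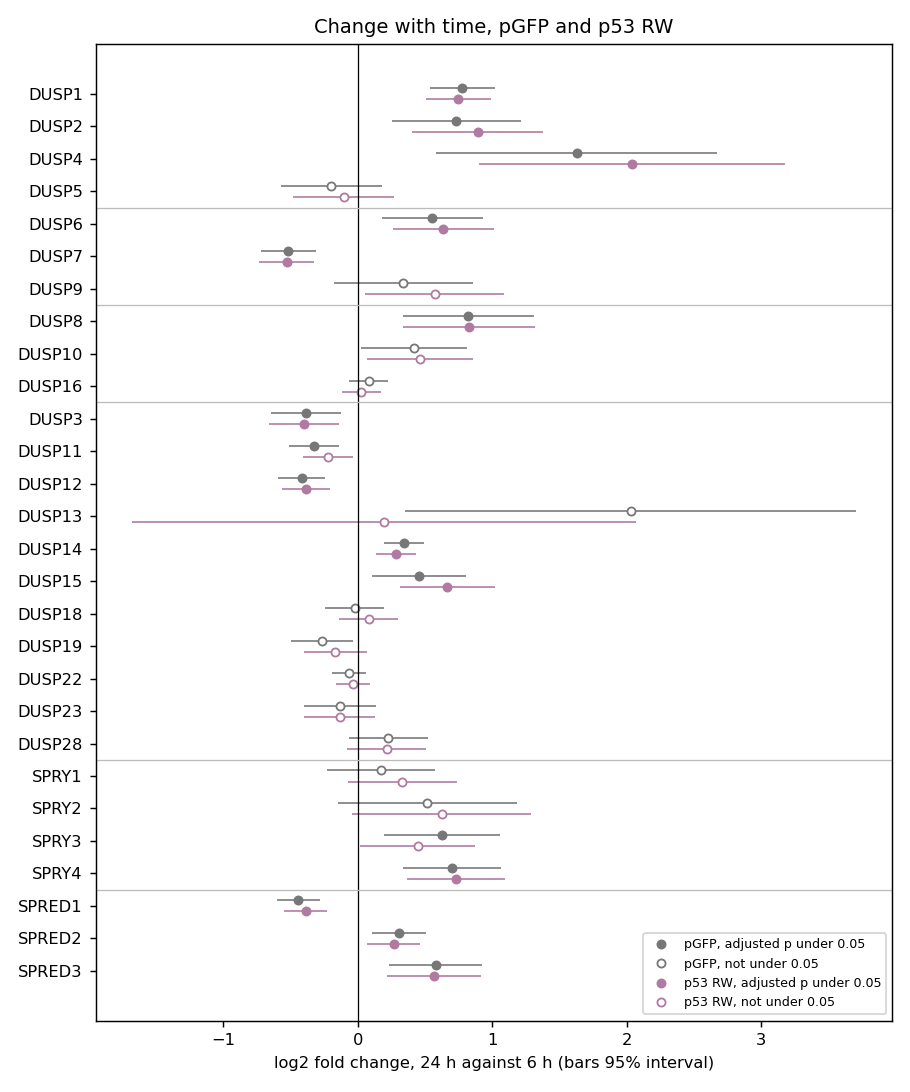
Log2 fold change of 24 h against 6 h for the 28 tested genes in pGFP (grey) and RW mutant p53 (purple) cells, with 95% intervals and filled symbols for an adjusted *P* under 0.05. The 2 series lie close together for most genes, with DUSP1, DUSP2 and SPRY4 higher and SPRED1, DUSP7 and DUSP12 lower at 24 h.

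Several members varied with the replicate number at 24 h. In all 5 vector groups the library numbered 1 was the lowest of its group for 9 of 28 members (32.1%, against 16.1% of all genes tested): *SPRY2*, *SPRY4*, *DUSP3*, *DUSP5*, *DUSP6*, *DUSP8*, *DUSP10*, *DUSP12* and *DUSP18*. For 6 of them (21.4%, against 5.46% of all genes) the 5 libraries numbered 1 lay below all 10 others. *SPRY2* was at 12.6 to 18.5 CPM in the libraries numbered 1 and at 24.4 to 33.7 CPM in the others. *SPRY4* was at 43.3 to 46.3 CPM against 48.9 to 64.8 CPM, and *DUSP6* at 22.0 to 26.1 CPM against 30.0 to 33.8 CPM. These 3 genes are commonly used as readouts of ERK activity, which was not itself measured in these libraries. *DUSP3* (31.0 to 35.9 against 41.2 to 48.1 CPM), *DUSP5* (25.9 to 41.0 against 41.8 to 61.2 CPM) and *DUSP10* (6.21 to 7.33 against 7.84 to 10.8 CPM) split in the same way. *PHLDA1*, an ERK-induced gene outside the module and named after its values were seen, was at 43.7 to 84.7 CPM against 108 to 174 CPM. No other gene of the ERK output list described below split completely. *CCND1* and *ETV4* were lowest in number 1 in 5 of 5 groups, but *FOS* in 1 and *EGR1* in 0 (209 to 273 CPM against 150 to 235 CPM). The labels do not say what the libraries of one number have in common. *SPRY1* did not follow this split, its library numbered 1 being the highest of the 3 with wild type p53, p53 O6-meG and p53 TM. Of the other nuclear inducible phosphatases, *DUSP1* and *DUSP2* were lowest in number 1 in 3 of 5 groups and *DUSP4* in 2.

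**Figure D5:**
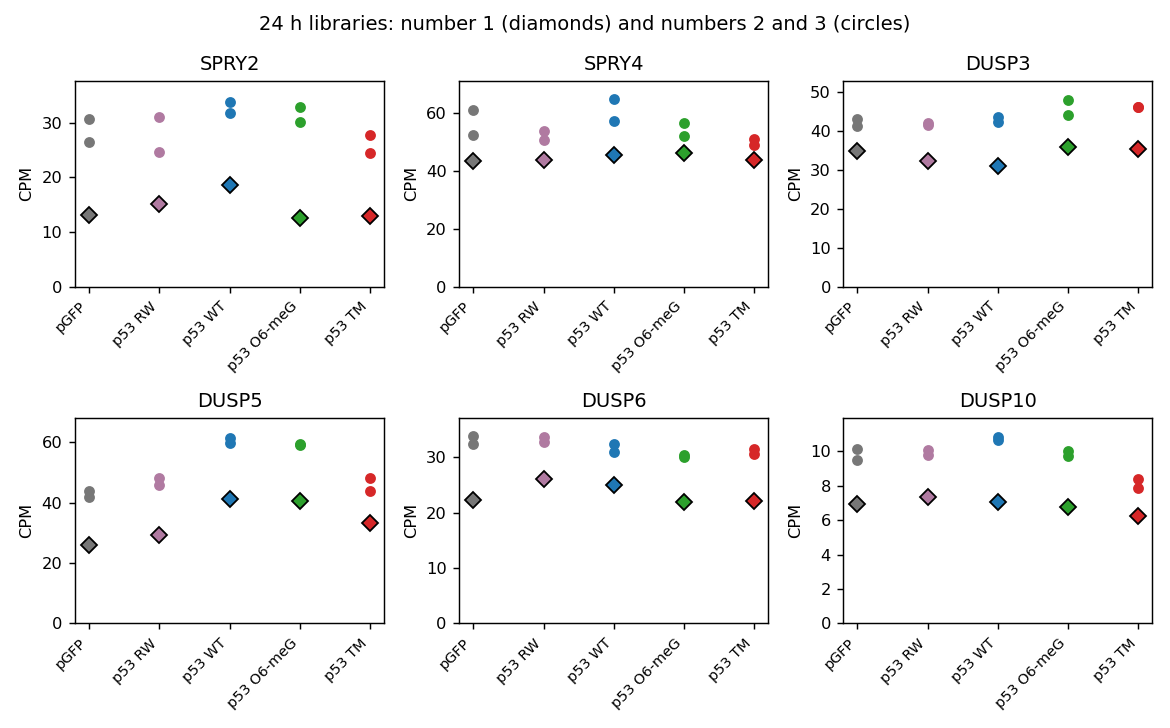
CPM of SPRY2, SPRY4, DUSP3, DUSP5, DUSP6 and DUSP10 in the 24 h libraries by vector, with diamonds for the libraries numbered 1 and circles for those numbered 2 and 3. In each panel all 5 diamonds lie below all 10 circles.

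The wider pathway was described from lists set beside the module, with wild type p53 against pGFP at 24 h read against the 20.5% higher and 14.5% lower of all genes. Of 22 ERK cascade genes, 7 rose and 2 fell (median log2 fold change 0.078). *HRAS*, one of the RAS proteins, rose by 2.03 on the log2 scale (SE 0.14, adjusted *P* = 4.83e-11), from 30.8, 36.0 and 32.9 CPM to 146, 152 and 109 CPM, and *KSR1*, a scaffold of RAF and MEK, by 3.05 (SE 0.35, adjusted *P* = 1.48e-07), from 5.05, 2.49 and 3.05 CPM to 39.2, 27.3 and 20.5 CPM. *MAPK3*, which encodes an ERK kinase, fell by 0.23 on the log2 scale (adjusted *P* = 0.0034), and *RPS6KA3*, a kinase downstream of ERK, fell by 0.30 (adjusted *P* = 0.0457). Activators and brakes of the pathway were therefore both among the called genes.

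Of 11 genes of the p38 and JNK cascades, 6 rose and 3 fell (median 0.415). The p38 kinases *MAPK11* (1.57, adjusted *P* = 9.50e-10) and *MAPK14* (0.70, adjusted *P* = 1.26e-08) rose, while the JNK kinase *MAPK8* (-0.50, adjusted *P* = 1.93e-06) and its activator *MAP2K7* (-0.23, adjusted *P* = 0.0188) fell. Of 18 other brakes on RAS and ERK, 15 were tested, 6 rose and 1 fell (median 0.261). *RASAL1*, a RAS inactivator, was at 0.0797, 0.0453 and 0.0230 CPM with pGFP, at 6.75, 8.33 and 4.32 CPM with wild type p53 and at 1.48, 1.06 and 0.654 CPM with p53 TM. *DAB2IP*, another RAS inactivator, rose by 1.88 (adjusted *P* = 3.56e-10), and *NF1*, which encodes the neurofibromin that *SPRED1* recruits, fell by 0.23 (adjusted *P* = 0.0467).

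Of 11 genes induced by ERK output, 5 rose and 2 fell (median 0.397), so that they did not move one way. *EPHA2*, a receptor kinase, rose by 1.87 (adjusted *P* = 3.20e-11) and *FOSL1*, an AP-1 subunit, by 1.00 (adjusted *P* = 9.21e-04). *ETV1* (-1.10, adjusted *P* = 1.28e-09) and *ETV5* (-0.64, adjusted *P* = 1.39e-07), transcription factors stabilised or induced by ERK signalling, fell. At 6 h the counts higher and lower were 5 and 0 for the ERK cascade, 3 and 0 for p38 and JNK, 3 and 0 for the other brakes and 1 and 0 for the output genes. The shares of all genes there were 8.68% higher and 1.59% lower. For p53 TM against wild type p53 at 24 h the counts were 1 and 2, 2 and 4, 0 and 3, and 2 and 4 in the same order, against 9.29% and 11.9% of all genes. *HRAS* (-0.72, adjusted *P* = 5.68e-04), *MAPK14* (-0.41, adjusted *P* = 1.68e-04), *DAB2IP* (-1.03, adjusted *P* = 2.26e-05) and *EPHA2* (-0.81, adjusted *P* = 5.52e-05) were among those lower. At 24 h against 6 h in pGFP cells the counts were 5 and 6, 3 and 4, 2 and 4, and 5 and 1, against 19.0% and 22.3% of all genes.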

How the data were processed

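RNA was from GFP-sorted H1299 cells (TruSeq Stranded Total RNA with Ribo-Zero Gold, single reads). The authors deposited raw counts per gene; by their processing notes reads were aligned to hg38 with STAR 2.5.3a and counted with featureCounts of Subread 1.5.2, and DESeq2 1.20 was used for their own tests. The 39359 rows were matched by Ensembl identifier to gene names (38904 matched, 455 did not). The rule takes members by symbol, but the choice of this gene family and of the lists was made with earlier results of these data known. For 28 libraries (10 groups, no block) counts were filtered with filterByExpr, scaled by TMM and fitted with edgeR 4.0.16 (quasi-likelihood test, R 4.3.3, limma 3.58.1). *P* was adjusted by Benjamini-Hochberg over all 21335 genes, with 0.05 as the limit of a call. CPM are read counts scaled to library size after TMM. Members called with wild type p53 at 6 h or 24 h or with p53 TM against wild type p53 at 24 h, or with the 3 smallest adjusted *P* for time in pGFP cells, are given by library, and from each pathway list at most the 2 called genes with the smallest *P* on each side. The study describes the libraries as biological replicates. No pair of libraries agreed within sampling noise (chi-square per degree of freedom from 6.09). At 24 h, libraries with the same replicate number deviated together from their group means (30 of 30 pairs above a correlation of 0.1, range 0.291 to 0.764, median 0.565), so the numbers were taken as paired there. The main tests used no block, and counts of called members with the block within each time are given where they differ. Alternatives were DESeq2 size factors, the DESeq2 1.42.0 Wald test, no filter, only the groups compared, blocks, both placements of the conflicting libraries and leaving out each library. The test script was tried on simulated counts. Motifs were searched in RefSeq promoters (GRCh38.p14, 25 of 29 members) and, for half-site pairs, in hg38 with GENCODE gene starts. One check of the labels is not reported here.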

Additional observations from a re-analysis of the deposited data

Results flagged for a closer look

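For DUSP22, the phosphatase that acts in JNK signalling, the response to wild type p53 differed between the times by 0.42 on the log2 scale (SE 0.092, adjusted *P* = 0.0064, interaction term in edgeR's quasi-likelihood test). It was higher with wild type p53 in 3 of 3 libraries than in any pGFP library at both times, by 0.18 at 6 h and 0.60 at 24 h. Without the filter on low counts the adjusted *P* was 0.122.

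For SPRED1 the difference was -0.41 (SE 0.12, adjusted *P* = 0.033, same test), with a change of -0.14 at 6 h and -0.55 at 24 h, and all 3 wild type p53 libraries below all 3 pGFP libraries at each time. The call was lost without replicate 1 or 2 of pGFP or of wild type p53, at 6 h or at 24 h (8 removals, adjusted *P* up to 0.0906).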

How the results depend on the processing

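No call reversed its direction. Of the members' results for wild type p53 against pGFP, 179 alternative values at 6 h all kept the call and 442 of 468 did at 24 h, and 270 of 288 did for p53 TM against wild type p53 at 24 h. *DUSP13* gave no value at 6 h with only the groups compared, where it did not pass the filter on low counts. The counts of 0 members for RW mutant p53 against pGFP, for p53 TM against pGFP at 6 h and for p53 O6-meG against wild type p53 stayed at 0 under every alternative.

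Some counts of called members moved by more than 1.5 times, and the cause was not tested. With only the groups compared in the fit they were 9 for wild type p53 against pGFP at 6 h, 7 for p53 TM against wild type p53 at 6 h and 5 at 24 h, 2 for p53 TM against pGFP at 24 h and 0 for p53 TM against p53 O6-meG at 24 h. Without the filter they were 2 for p53 TM against pGFP and 2 against p53 O6-meG at 24 h, and 1 for the difference of the wild type response between times. With the replicate number as a block within each time, they were 9 for wild type p53 and 11 for p53 O6-meG against pGFP at 6 h, 7 for p53 TM against wild type p53 at 6 h, 15 for p53 TM against wild type p53, 7 against pGFP and 9 against p53 O6-meG at 24 h, and 6 for the difference between times. With a block shared by both times, p53 O6-meG against pGFP at 6 h called 7. At 6 h only 6 of 9 same-number pairs correlated above 0.1 (0.031 to 0.413), so there the number is not taken to pair the libraries. Over all genes the block raised the calls for p53 TM against wild type p53 at 24 h from 4520 to 7888, against pGFP from 2280 to 4620 and against p53 O6-meG from 2144 to 5391, and those for p53 O6-meG against wild type p53 from 2 to 114. At 6 h it raised them from 2191 to 4017 for wild type p53 and from 1035 to 3679 for p53 O6-meG against pGFP. For p53 TM against wild type p53 at 6 h they went from 2329 to 4499, and for the difference between times from 1388 to 3897. With both conflicting libraries placed by genotype, the counts were 1 for p53 O6-meG against pGFP at 6 h, 0 for p53 TM against wild type p53 at 6 h and 1 for p53 TM against p53 O6-meG at 24 h.

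Leaving out 1 library at a time gave 5 to 5 members for wild type p53 at 6 h, 10 (without pGFP replicate 1 of 24 h) to 13 at 24 h, 3 to 5 for p53 O6-meG at 6 h and 9 to 12 at 24 h, and 3 to 6 for p53 TM against pGFP at 24 h. It gave 4 to 6 for p53 TM against wild type p53 at 6 h and 7 to 8 at 24 h, 1 to 6 against p53 O6-meG at 24 h, 9 to 17 for time in pGFP, 10 to 15 in RW mutant p53 and 1 to 2 for the difference between times. Depth limits DUSP4, DUSP9, DUSP13 and DUSP29, whose median level was under 1 CPM.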
